A study of Arabidopsis thaliana with 115 samples.

Results

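The nitrate transporter genes described here are 10 Arabidopsis genes, chosen by name from the families that move nitrate across root membranes: NRT1.1 (AT1G12110), NRT1.2 (AT1G69850), NRT1.5 (AT1G32450) and NRT1.8 (AT4G21680) of the NRT1 family, NRT2.1 (AT1G08090), NRT2.2 (AT1G08100), NRT2.4 (AT5G60770), NRT2.5 (AT1G12940) and NRT2.6 (AT3G45060) of the NRT2 family, and NRT3.1 (AT5G50200), the partner protein of the NRT2 transporters. They are 10 of the 33016 genes in the count tables, and all 10 passed the filter on low counts, which 22883 genes passed. Each was followed across 33 TFs of the early nitrogen (N) response in the TARGET assay, in which a TF is expressed as a fusion with the glucocorticoid receptor (GR) in isolated root cells and enters the nucleus when dexamethasone (DEX) is added. All groups were protoplasts (root cells without their walls) of Col-0 seedlings aged 10 days that had grown on 1 mM KNO3. TF and empty vector (EV) cells alike received 20 mM KNO3 with 20 mM NH4NO3 (60 mM N) and 10 µM DEX. Both also received 35 µM cycloheximide (CHX), which blocks protein synthesis. The TF and EV libraries were therefore both from N-treated cells, and no library here shows the response to N itself. By the paper's methods, vectors carried a red or a green reporter. Cells with different reporters were pooled in a well and separated by sorting. The reporter and pooled partner of each group are not in the labels, so TF and EV may differ in these too.

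The 97 TF libraries fall into 6 batches with 3 EV libraries each, 18 in all. HSFB2A, ERF056 and GATA17 were assayed in batch 1 and TGA1 alone in batch 2. In batch 3 were HHO3, TGA4, GATA17L, CRF4, HYH, HB6, COL5 and BEE2. In batch 4 were HHO2, LBD38, C2H2, ZFP4, bZIP3, CDF1, NAC4, ASR3 and ERF060. FBH4, HAT22, MYB61, NAP, TCP23 and WRKY18 formed batch 5, and DIV1, ERF5, LBD37, RAV1, VRN1 and WRKY54 formed batch 6. A TF had 3 libraries, except FBH4 and HAT22 with 2 each. Replicates were wells of one transfection, so the spread between them is that of the assay, and p-values refer to this spread. Total counts per library were 6756385 to 45372240 in batches 1 to 4 and 1542961 to 9697384 in batches 5 and 6, and the 10 most abundant genes took 4.69% to 8.14% of the counts in the former and 18.32% to 49.48% in the latter. Batches 5 and 6 thus have mostly shallower libraries, though not fewer counts of every transporter. For NRT2.5 their EV libraries held 134 and 120 counts, against 25 in batch 4. The shoot markers LHCB1.1 and LHCB1.3 summed to at most 1.76 CPM in an EV library, and the shoot marker RBCS1A did not pass the filter on low counts. The 6 stele and 5 epidermis markers named below all passed this filter. In batch 6 and, but for TCP23, in batch 5 the log2 fold change of COBL9 was 0, as for a gene without counts. Every TF's own gene was higher than in EV, by 2.9 to 13.79 on the log2 scale, in all 33 TFs.

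Nitrate enters root cells against its gradient by proton-coupled transporters. NRT1 proteins work mostly at high external nitrate, most NRT2 proteins at low nitrate and together with NRT3.1, and transporters of the stele then load nitrate into the xylem or take it back. In roots many of these genes are switched on by nitrate through the transcription factor NLP7 and are held back by repressors such as HHO2, HHO3, LBD37 and LBD38 when N is ample. TGA1 and TGA4 are known as regulators of NRT2.1 and NRT2.2 in the nitrate response of the root.

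The promoters of the transporters with the most calls below, and of the neighbours NRT2.1 and NRT2.2, are shown for the short motifs known from the TF families of the assay. Each is the 250 bases before the gene start in the RefSeq annotation of TAIR10.1, written in the direction of transcription, with motif matches on either strand in capitals. The motifs are short, and many of the 27438 windows of this length before protein-coding genes hold them. GAATC, known for HHO proteins, was found in 38.9% of these windows. The second HHO motif, GAATATT, was in 8.81%. For TGA proteins the motif was TGACG, found in 18.6%. The G-box of bZIP and bHLH proteins, CACGTG, was in 6.49%. WRKY proteins are known for TTGAC, which 44.9% held, ERF proteins for GCCGCC, which 1.87% held, and RAV proteins for CAACA, which 47.4% held.
NRT1.8 (chr4:11519806-11520055, minus strand): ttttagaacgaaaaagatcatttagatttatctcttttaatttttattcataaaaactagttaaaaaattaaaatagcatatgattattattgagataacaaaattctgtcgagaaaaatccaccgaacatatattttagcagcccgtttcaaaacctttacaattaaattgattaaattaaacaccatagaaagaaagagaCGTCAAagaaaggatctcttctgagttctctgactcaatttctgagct
NRT1.2 (chr1:26300685-26300934, minus strand): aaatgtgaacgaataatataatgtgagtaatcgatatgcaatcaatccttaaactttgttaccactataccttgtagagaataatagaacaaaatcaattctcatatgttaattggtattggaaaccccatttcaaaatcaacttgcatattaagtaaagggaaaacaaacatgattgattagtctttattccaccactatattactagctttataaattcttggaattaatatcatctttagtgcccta
NRT2.1 (chr1:2523773-2524022, plus strand): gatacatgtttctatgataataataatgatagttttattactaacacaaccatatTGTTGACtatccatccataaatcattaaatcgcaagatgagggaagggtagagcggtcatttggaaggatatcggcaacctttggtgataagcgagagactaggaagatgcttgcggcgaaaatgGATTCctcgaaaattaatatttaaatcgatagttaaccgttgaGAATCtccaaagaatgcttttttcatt
NRT2.2 (chr1:2529121-2529370, minus strand): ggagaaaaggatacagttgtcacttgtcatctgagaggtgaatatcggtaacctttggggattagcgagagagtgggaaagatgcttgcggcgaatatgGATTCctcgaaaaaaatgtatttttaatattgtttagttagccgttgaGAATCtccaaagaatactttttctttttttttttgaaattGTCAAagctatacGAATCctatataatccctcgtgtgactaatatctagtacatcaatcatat
The NRT1.8 window has 1 match to TGACG, written CGTCA on this strand, which starts 48 bases before the gene, and it overlaps the only TTGAC match by all but 1 base. No motif of the list was found in the NRT1.2 window. NRT2.1 has 2 GAATC matches, 1 TTGAC and 1 CAACA, of which the last pair overlap, and NRT2.2 has 3 GAATC and 1 TTGAC. NRT2.1 and NRT2.2 share a run of 22 bases around 1 of the GAATC matches, ccgttgagaatctccaaagaat, which begins 34 bases before NRT2.1 and 110 bases before NRT2.2. A match is only a description of these letters. Among the other members, CAACA was found once each for NRT1.1, NRT1.5 and NRT2.6, GAATC 3 times for NRT2.4, 2 times for NRT2.5 and once for NRT3.1. NRT2.4 also had 1 TTGAC match and, on both strands of 1 site, GAATATT.

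NRT2.1 (chr1:2524023-2526322, 3 exons) and NRT2.2 (chr1:2527170-2529120, 3 exons) lie tail to tail, 847 bases apart. Their coding sequences are 89.4% identical over 1569 aligned positions, with an identical run of up to 170 bases, and 11.4% of the stretches of 50 bases of NRT2.2 also occur in NRT2.1. How reads that fit both genes were counted is not given in the sources used here, so the split of counts between this pair is uncertain. The 3′ ends of NRT1.5 (chr1:11715147-11719988) and NRT1.8 (chr4:11517353-11519805) overlap a neighbour by 16 and 44 bases. The other members overlap no annotated gene.

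Levels in EV cells show which transporters these root cells carried after the same treatments without an added TF. Per kilobase of exons, NRT3.1 was the most abundant in the EV libraries of 5 batches, at 90.6 to 125 CPM per kb as a batch mean (CPM is the count relative to the library size after TMM scaling, n = 3), and NRT1.8 was first in batch 4, at 45.7 ± 5.4 (SD). NRT1.2 was steady: its EV batch means lay between 59.2 and 82.3 CPM, a ratio of 1.39, and every library held at least 107 counts of it. By contrast NRT1.1 fell from 87.4 CPM in batch 1 to 4.35 in batch 6, NRT1.8 from 118.9 in batch 1 to 4.28 in batch 5, and NRT2.1 from 51.8 in batch 2 to 0.779 in batch 6. NRT3.1 was lowest in batch 4, at 29.2 CPM against 119.1 to 163.8 in the others. NRT2.5, a high-affinity transporter known from N-starved plants, had the opposite order, with 8.23 CPM in batch 5 and 7.87 in batch 6 against 0.62 to 2.57 in batches 1 to 4. These differences are between batches of EV cells and carry no TF effect, and what sets them apart was not tested.

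**Figure D1:**
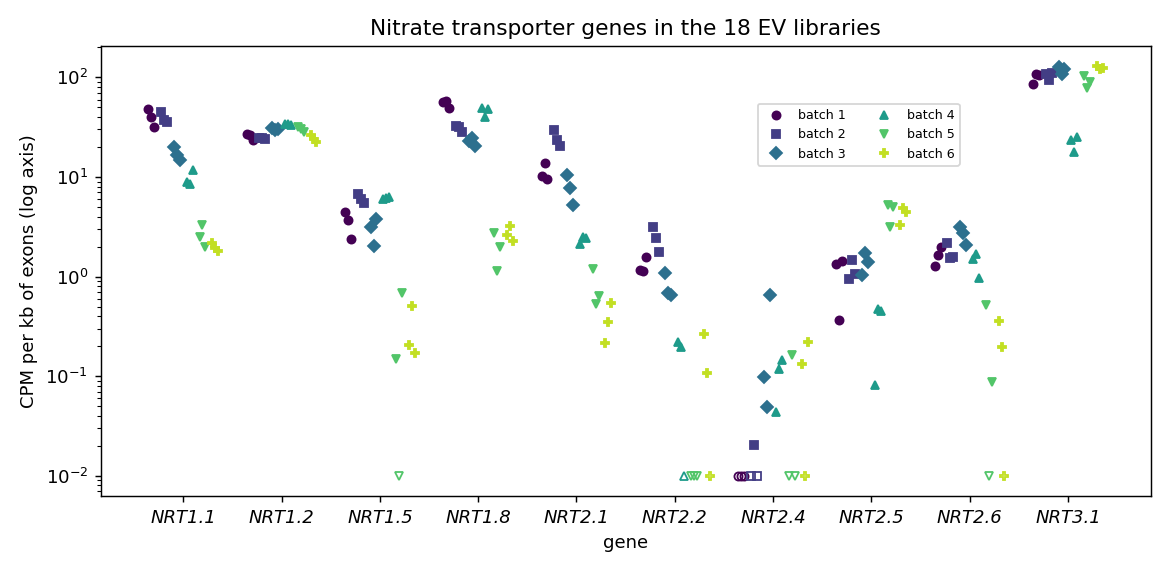
CPM per kilobase of exons (log axis) of the 10 genes in the 18 EV libraries, with 1 symbol per library and batch as shape and colour; open symbols at 0.01 are libraries with 0 counts. NRT1.2 stays at 1 level over the batches, whereas NRT1.1, NRT1.5, NRT1.8, NRT2.1 and NRT2.6 are lowest in batches 5 and 6 and NRT2.5 is highest there.

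The order of levels could be read for the abundant genes only. In batch 1 the EV libraries of NRT3.1 (mean 100 CPM per kb), NRT1.8 (54.4), NRT1.1 (39.7), NRT1.2 (25.7), NRT2.1 (11.3) and NRT1.5 (3.52) did not overlap each other, but those of NRT2.6 (1.64), NRT2.2 (1.29) and NRT2.5 (1.04) did. In batch 2 NRT1.2 and NRT2.1 were both at 24.5 CPM per kb and overlapped. In batch 5 each gene from NRT2.5 (4.44) down to NRT2.2 overlapped the next in order. NRT2.2 had a mean of 13.5 counts per library and 0 counts in 22 libraries, and NRT2.4 a mean of 2.3 counts and 0 in 48 libraries, so at this depth neither gene could show a modest change. NRT2.6 was at 0 in 13 libraries.

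Of the 330 pairs of a transporter gene and a TF, 47 passed an adjusted p of 0.05: the gene was higher than in EV in 18 pairs and lower in 29. This is 14.2% of pairs, against 9.58% over all pairs of a tested gene and a TF, and by direction 5.45% against 4.59% induced and 8.79% against 4.99% repressed. The median log2 fold change was -0.02 over the members and 0 over all tested genes. The pairs were unevenly spread. NRT1.2 and NRT1.8 had 13 calls each, NRT2.1 had 8, NRT2.5 and NRT3.1 had 4 each, NRT1.5 had 3, NRT1.1 and NRT2.2 had 1 each, and NRT2.4 and NRT2.6 had none. The median tested gene was called with 2 of the TFs, and 4.22% of genes with 13 or more. Leaving out batches 5 and 6, whose libraries are shallow, gives 29 calls over the other 21 TFs, 5 of them induced and 24 repressed, where 8.35% of all pairs with these TFs were called, 3.75% induced and 4.61% repressed. The other 13 induced calls came from batches 5 and 6. Without an EV replicate the induced calls were 8 to 11. No called pair changed its direction under any of the 13 other settings that gave a value for it, and 26 of the 47 passed the threshold in all of them.

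**Figure D2:**
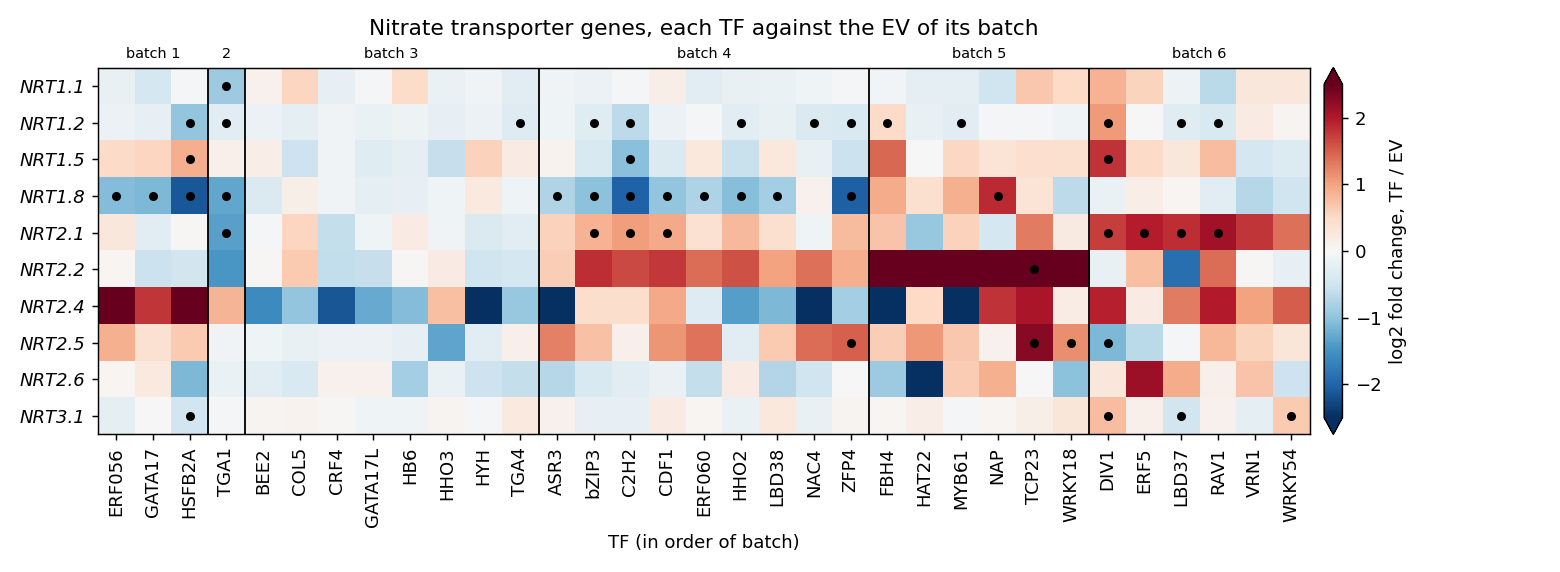
Log2 fold change of the 10 genes (rows) for each of the 33 TFs against the EV of its batch (columns, in order of batch); black points mark an adjusted p under 0.05, and colours stop at 2.5 in each direction. The row of NRT1.8 is blue and marked for 12 TFs of batches 1, 2 and 4, and the row of NRT2.1 is red and marked for 4 TFs of batch 6; the deep colours of NRT2.2 and NRT2.4 come from groups with few or 0 counts.

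NRT1.8, which takes nitrate out of the xylem sap into the cells around the vessels, was the transporter most widely lowered. It fell with 12 TFs: ERF056, GATA17 and HSFB2A, the 3 TFs of batch 1, TGA1 in batch 2, and 8 of the 9 TFs of batch 4. The TF and EV libraries did not overlap for any of the 12, but this also held for 2 TFs of batch 3 without a call. The share of called pairs without overlap over all genes was not counted. Of all tested genes, 410 (1.79%) were repressed with as many TFs, and 1157 (5.06%) with all 3 TFs of batch 1. In batch 4, 4.05% of all pairs were repressed calls, and 88 genes (0.385% of those tested) were repressed with 8 or more of its 9 TFs. The TFs of a batch share their EV libraries, so these calls are not independent of each other. With the 8 TFs of batch 3 there was no call of NRT1.8 by edgeR or DESeq2, and its log2 fold changes lay between -0.37 and 0.25.

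The lowest NRT1.8 levels came with HSFB2A, a heat shock factor, and ZFP4 and C2H2, both zinc finger proteins. In the HSFB2A libraries NRT1.8 was at 28.6, 29.1 and 24.1 CPM, against 122.7, 125.8 and 108.3 in the EV libraries of batch 1. Every HSFB2A library was below every EV library, with means of 27.3 and 118.9 CPM, and the log2 fold change was -2.12 ± 0.19 (SE, adjusted p = 4.42e-16). ZFP4 gave 25.3, 26.2 and 21.2 CPM and C2H2 29.4, 24.5 and 19.8 CPM, against 108.8, 86.6 and 104.5 in the EV libraries of batch 4. These were changes of -2.04 ± 0.18 (adjusted p = 4.55e-15) and -2.02 ± 0.18 (adjusted p = 3.09e-15), and they held under each of the 13 other settings.

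The other NRT1.8 decreases were smaller and like each other. In batch 1 ERF056 gave 42.8, 49.1 and 75.8 CPM and GATA17 62.1, 47.7 and 54.3, with log2 fold changes of -1.09 and -1.12. In batch 4, HHO2, bZIP3, CDF1, LBD38, ERF060 and ASR3 gave -1.06, -1.02, -0.99, -0.85, -0.77 and -0.76, and all of their libraries lay between 42.1 and 66.5 CPM. NAC4 was the exception of batch 4, with a mean of 107.2 CPM against 100 in EV and a log2 fold change of 0.1 (adjusted p = 0.847). The ASR3 call was lost without replicate 2 of the TFs (adjusted p = 0.0619), and the others were kept under each setting.

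**Figure D3:**
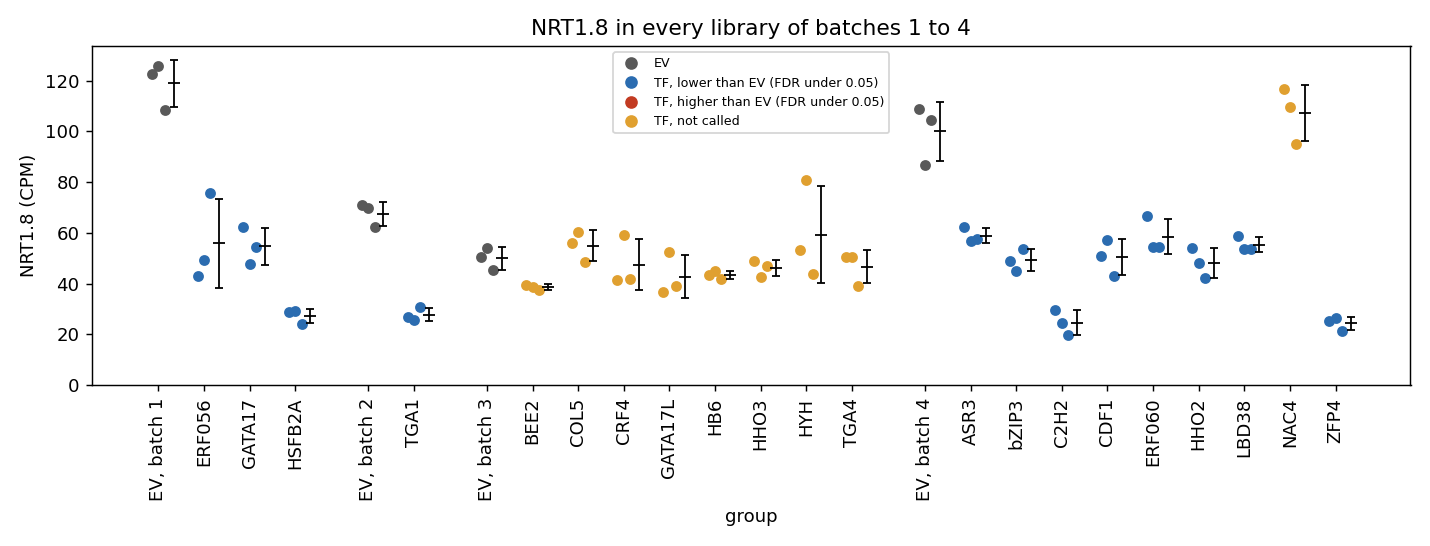
NRT1.8 in CPM (y axis) in each library of batches 1 to 4, grouped by EV or TF (x axis); the bar beside each group is the mean ± SD, and colour gives the call against the EV of the batch. The 8 called TFs of batch 4 lie between 19.8 and 66.5 CPM, below the EV libraries at 86.6 to 108.8, while NAC4 overlaps EV and batch 3 has no called TF.

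The summed level of markers of the stele, where NRT1.8 is known to be active, was lower in the groups with lower NRT1.8 and in some others. The list holds SHR, AHK4, PHO1, SKOR, SUC2 and APL, and their summed level was 190.4 to 207.4 CPM in the EV libraries of batch 1 and 120.4 to 139.4 with ERF056, 102.9 to 126.2 with HSFB2A and 161.5 to 164.8 with GATA17. With TGA1 it was 119 to 126.4 against 192.2 to 225. In batch 4 it was 258.1 to 284.3 in EV, 186.6 to 234.2 in the libraries of the 8 TFs with lower NRT1.8, and 227.9 to 294 with NAC4. Of the 6 markers 4 were lower with HSFB2A and with TGA1, 3 with GATA17, 2 with ERF056, bZIP3 and C2H2, and 1 with each of CDF1, ERF060, HHO2, LBD38, ZFP4, ASR3 and NAC4. In batch 3, where NRT1.8 was not called, the sum was 193.1 to 204.4 CPM in EV. It was lower without overlap with CRF4 (143.1 to 168.3), TGA4 (138.2 to 182.2), BEE2 (145 to 180.2), HYH (154.9 to 170.9) and HB6 (158.2 to 181.8). By single markers, 1 was called lower with each of CRF4, BEE2, HYH and HB6 and 0 with TGA4. AHK4 was called higher with HYH and HB6. The markers did not all move alike: with HSFB2A the log2 fold change was -0.97 for SKOR and 0.41 for AHK4 (adjusted p = 0.121). In such bulk samples fewer cells of a type and less RNA per cell cannot be told apart, and the part of the stele cells in these results was not tested.

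NAP was the 1 TF with an induced call of NRT1.8 by edgeR, named here after its values were seen. DESeq2 also called the gene higher with MYB61 (log2 fold change 0.92, adjusted p = 0.00907) and FBH4 (0.96, adjusted p = 0.0337). The NAP libraries held 14.7, 15.8 and 19 CPM against 5.97, 2.51 and 4.36 in the EV libraries of batch 5, where the gene was low. The groups did not overlap, and the log2 fold change was 1.87 ± 0.3 (adjusted p = 1.46e-06), kept under each of the 13 settings. The stele sum was 100.6 to 126.3 CPM with NAP and 107.5 to 115.4 in EV.

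NRT1.5, which loads nitrate into the xylem where NRT1.8 takes it back, had 3 calls, and C2H2 and HSFB2A were also called for NRT1.8. With C2H2 it was at 6.65, 4.62 and 8.34 CPM against 13.2, 13.5 and 13.8 in EV, a log2 fold change of -1.05 ± 0.28 (adjusted p = 0.00291). C2H2 thus lowered both genes of the pair. With HSFB2A NRT1.5 rose, to 16.9, 14.5 and 13.5 CPM from 9.79, 8.28 and 5.31 in EV (0.91 ± 0.28, adjusted p = 0.0103), in the same libraries in which NRT1.8 fell. The C2H2 call was lost without replicate 2 of the TFs (adjusted p = 0.0859), and the HSFB2A call without EV replicate 3 or without TF replicate 1 (adjusted p up to 0.102). The remaining call, with DIV1 (log2 fold change 1.81, adjusted p = 0.031), rests on 1 library at 7.66 CPM beside 0.972 and 0.933, which overlap the EV libraries at 0.455, 1.12 and 0.379. Without TF replicate 3, which removes that library, its adjusted p was 0.636, and it was lost in 4 of 12 settings.

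NRT1.2, a low-affinity nitrate uptake transporter of the root surface that also carries abscisic acid, changed by little but with many TFs. It fell with 11 TFs and rose with 2, and its log2 fold change was below 0 with 29 of the 33. Among tested genes, 2.38% were repressed with 11 or more TFs. All 13 called groups were free of overlap with their EV libraries, but in batch 3 so were 7 of the 8 TFs, of which 1 was called. The share of called pairs without overlap was not counted over all genes, so this adds no support to the calls. The SE of its log2 fold changes was 0.09 to 0.11, against 0.26 to 0.81 for NRT2.1, so that small changes of NRT1.2 could pass the test.

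The clearest NRT1.2 changes were with DIV1, HSFB2A and C2H2. DIV1, a MYB-related protein, gave 135, 112.6 and 123.8 CPM against 64.8, 58.5 and 54.4 in the EV libraries of batch 6, an increase of 1.07 ± 0.1 on the log2 scale (adjusted p = 1.96e-17). HSFB2A gave 31.5, 30.6 and 32.7 CPM against 66.6, 63.7 and 57.6 in EV, a change of -0.99 ± 0.09 (adjusted p = 3.55e-16). C2H2 gave 57.9, 46.9 and 52 CPM against 82.4, 83.5 and 81 in EV, a change of -0.65 ± 0.09 (adjusted p = 3.21e-09). These 3 and the decreases with ZFP4 (-0.39), RAV1 (-0.38) and NAC4 (-0.36) passed under each of the 13 other settings.

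Of the remaining NRT1.2 calls, most were near the threshold. TGA4, LBD37, bZIP3, HHO2, MYB61 and TGA1 gave log2 fold changes of -0.33, -0.3, -0.3, -0.29, -0.28 and -0.27. The MYB61 call (adjusted p = 0.0412) was lost in 12 of the 13 settings, those of TGA4 and LBD37 in 7, HHO2 in 6, TGA1 in 4 and bZIP3 in 2. FBH4 was the second TF with higher NRT1.2, at 90.7 and 114.9 CPM in its 2 libraries against 76.7, 74 and 69.7 in EV. Its log2 fold change was 0.47 (adjusted p = 0.00177), and it was lost with each batch fitted alone and without TF replicate 3, which leaves FBH4 with 1 library assumed to vary like the others (adjusted p up to 0.22).

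**Figure D4:**
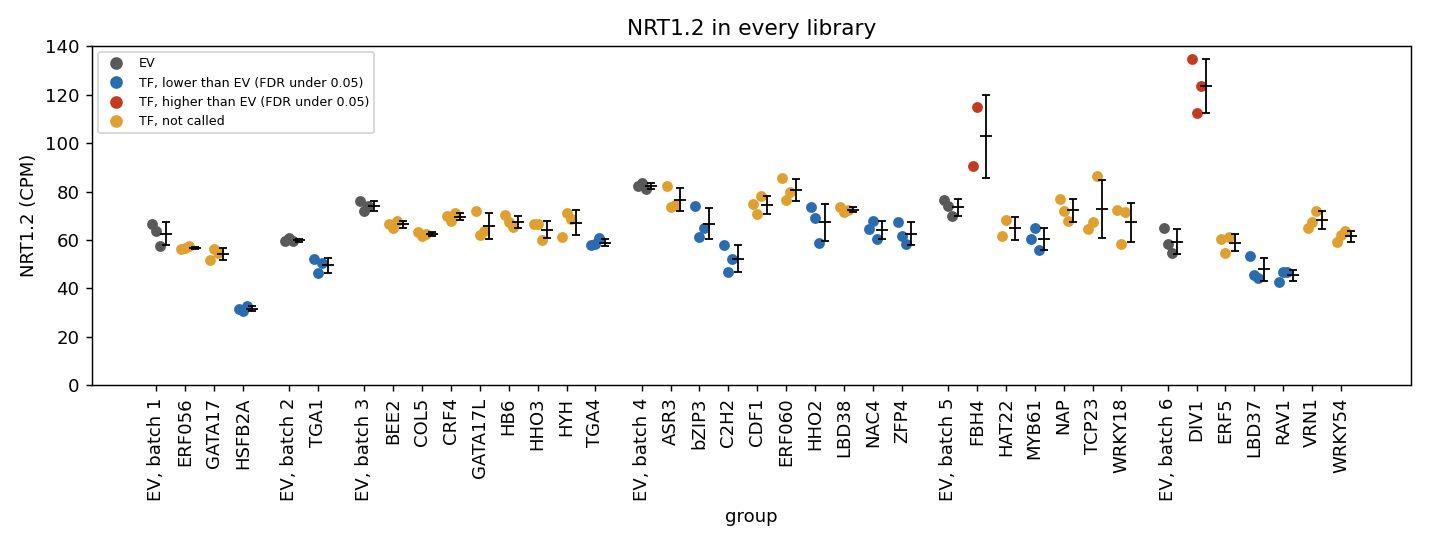
NRT1.2 in CPM (y axis) in every library, grouped by EV or TF in order of batch (x axis); the bar beside each group is the mean ± SD, and colour gives the call. EV libraries stay between 54.4 and 83.5 CPM in all batches, HSFB2A lies at 30.6 to 32.7 and DIV1 at 112.6 to 135.

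NRT1.1, the dual-affinity transporter that also acts as a nitrate sensor, was called by edgeR with TGA1 only, and by DESeq2 with 4 TFs. The TGA1 libraries held 41.4, 49 and 48.9 CPM against 98.8, 81.8 and 77.8 in the EV libraries of batch 2. The groups did not overlap, and the log2 fold change was -0.9 ± 0.19 (adjusted p = 0.000128), kept under each of the 13 settings. With DIV1 the value was 0.86 ± 0.34 (adjusted p = 0.0543), past the threshold in 4 of the 13 settings, and with GATA17 -0.44 ± 0.18 (adjusted p = 0.0952), past it in 6. With COL5 it was 0.53 ± 0.19 (adjusted p = 0.119), past the threshold in 4 settings, and HB6 passed in 2 and TCP23 in 1. With all TFs but TGA1, DIV1, GATA17 and COL5 the log2 fold change lay between -0.67 and 0.67. In batches 5 and 6 NRT1.1 had 85 and 65 counts over the 3 EV libraries, and the SE of its log2 fold change reached 0.42, so a change of the size seen with TGA1 may not have been detectable there.

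NRT2.1, the main high-affinity nitrate uptake transporter of the root, was lowered by TGA1 and raised with 7 TFs of batches 4 and 6. Of all tested genes, 4.76% were induced with 7 or more of the 33 TFs. The TGA1 libraries were at 18.7, 20.3 and 21.9 CPM against 62.2, 49.7 and 43.4 in EV, with no overlap, a log2 fold change of -1.36 ± 0.26 (adjusted p = 2.67e-05) that was kept under each of the 13 settings. NRT2.2 moved by a like amount with TGA1, from a mean of 4.2 to 1.53 CPM without overlap, -1.46 ± 0.56, but its adjusted p was 0.0557. It passed the threshold in 6 of the 13 settings, DESeq2 among them (adjusted p = 0.0292). NRT3.1, the partner of both proteins, was at 135.3 CPM with TGA1 and 137.7 in EV, a log2 fold change of -0.02 with a 95% interval of -0.25 to 0.2. Thus TGA1 lowered NRT1.1, NRT1.2, NRT1.8 and NRT2.1, 4 of the 10 members, where it called 19.7% of all tested genes. Markers of root hairs and epidermis (COBL9, RHD6, EXPA7, GL2 and WER) were also lower with TGA1, for 3 of the 5: their sum was 27.8 to 36.4 CPM against 72.8 to 100.4 in EV. Their part in the lower NRT2.1 and NRT1.1 was not tested.

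In batch 6, where EV cells had little NRT2.1, the gene was higher with RAV1, ERF5, LBD37 and DIV1, and the values of VRN1 and WRKY54 were above EV on average as well. The EV libraries of this batch held 0.455, 0.745 and 1.14 CPM, which are 2, 4 and 6 counts. RAV1 gave 3.57, 3.88 and 2.53 CPM, ERF5 3.3, 4.26 and 1.89, and LBD37 3.34, 2.69 and 2.61. All of these were above every EV library. The log2 fold changes were 2.1 ± 0.62 (adjusted p = 0.00692), 1.96 ± 0.64 (adjusted p = 0.043) and 1.85 ± 0.63 (adjusted p = 0.0431). DIV1 gave 1.73 (adjusted p = 0.0468), with 1 library inside the EV range. In this batch 6.18% of all pairs were induced calls, and 209 genes (0.913%) were induced with 4 or more of its 6 TFs, which share the EV libraries. The RAV1 call was kept under each of the 13 settings, whereas those of ERF5, LBD37 and DIV1 were lost in 6, 7 and 7 of them, with adjusted p up to 0.162, 0.158 and 0.148. Each of them was lost without any 1 of the EV replicates.

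In batch 4 NRT2.1 rose with C2H2, CDF1 and bZIP3. The EV libraries of batch 4 held 199 counts of the gene, against 12 in batch 6. C2H2 gave 13.2, 8.2 and 9.64 CPM against 4.47, 5.24 and 5.18 in EV (log2 fold change 1.05, adjusted p = 0.00559), and this call was kept under each setting. CDF1 (0.95, adjusted p = 0.0258) and bZIP3 (0.86, adjusted p = 0.0405) also lay above EV in every library, but were lost in 4 and 7 of the settings. HHO2 and ZFP4 did not pass, at 0.81 and 0.8 (adjusted p = 0.0743 and 0.0742), though their libraries did not overlap with EV, and both passed by DESeq2 (adjusted p = 0.0413 and 0.0448), with the replicate block and with each batch alone. The 3 called TFs also had lower NRT1.8. In the sample list C2H2, CDF1, ZFP4, HHO2 and bZIP3 stand together before the EV of batch 4. NAC4, ASR3, ERF060 and LBD38 stand after it. NRT2.1 means were 8.68 (ZFP4) to 10.3 CPM (C2H2) in the former and 4.6 (NAC4) to 7.39 (ASR3) in the latter. NRT1.5 means were 6.54 (C2H2) to 10.4 (CDF1) and 11.9 (NAC4) to 16.3 (LBD38), against 13.5 in EV. A difference in handling between these sets cannot be told apart from the TFs. The root hair and epidermis markers summed to 37.8 to 51.8 CPM with C2H2, 55.9 to 80 with CDF1 and 29.9 to 41.3 with bZIP3. Their sum was 49.6 to 69 with HHO2 and 45.3 to 48.8 with ZFP4, against 14.8 to 26.2 in EV. RHD6 was called higher with each of these TFs and with none of NAC4, ASR3, ERF060 and LBD38. COBL9 was called with CDF1 only, and EXPA7, GL2 and WER with no TF of the batch. The log2 fold change of GL2 was -0.22 with C2H2, -0.28 with CDF1 and -0.31 with bZIP3. The part of these markers in the result was not tested.

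**Figure D5:**
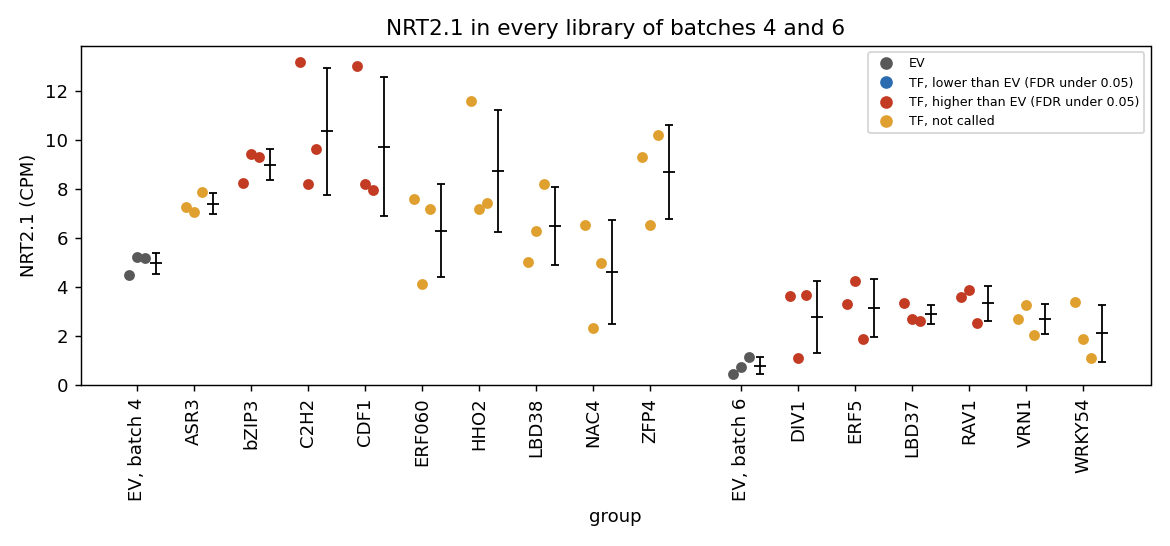
NRT2.1 in CPM (y axis) in each library of batches 4 and 6, grouped by EV or TF (x axis); the bar beside each group is the mean ± SD, and colour gives the call. All libraries of C2H2, CDF1 and bZIP3 lie above the EV libraries of batch 4 at 4.47 to 5.24 CPM, and in batch 6 the EV libraries lie at 0.455 to 1.14 CPM below those of RAV1, ERF5 and LBD37.

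NRT3.1, which NRT2 proteins need to reach and work in the plasma membrane, shared 2 TFs with NRT2.1 among its calls, DIV1, where both rose, and LBD37. It rose with DIV1, to 304.4, 257.8 and 280 CPM from 169.6, 159.5 and 162.3 in EV (log2 fold change 0.78 ± 0.12, adjusted p = 2.97e-08), and with WRKY54, to 245.5, 266.9 and 256 CPM (0.65 ± 0.11, adjusted p = 8.25e-06). It fell with HSFB2A, to 102.2, 87.2 and 94.3 CPM from 111.9, 143.8 and 139.1 (-0.48 ± 0.11, adjusted p = 0.00069). These groups did not overlap EV, and the 3 calls were kept under each setting. LBD37, which raised NRT2.1, had lower NRT3.1, at 120.3, 131.6 and 109.1 CPM (-0.45 ± 0.12, adjusted p = 0.00392), a call lost without replicate 3 of the TFs (adjusted p = 0.0775). RAV1, C2H2, CDF1, bZIP3 and ERF5, with higher NRT2.1, had no call of NRT3.1. Across all libraries, centred within batches, the correlation of log2 CPM was 0.455 between NRT3.1 and NRT1.2 and 0.373 between NRT2.1 and NRT2.2, the largest pair values among the members. These are descriptions over libraries that share depth and batch.

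NRT2.5 had 4 calls, led by TCP23, a TCP protein. The TCP23 libraries held 49.9, 42.4 and 28.4 CPM against 9.61, 5.86 and 9.21 in the EV libraries of batch 5. They were the highest NRT2.5 values of the series, with a log2 fold change of 2.28 ± 0.37 (adjusted p = 1.87e-06) that was kept under each of the 13 settings. With TCP23 the root hair and epidermis markers summed to 22.2 to 30.8 CPM against 5.58 to 15.6 in EV, with RHD6 alone called higher. SHR and CASP1, markers of stele and endodermis, were also higher while APL and MYB36 were lower. The part of all these markers in the NRT2.5 result was not tested. WRKY18 gave 16.3, 18.5 and 21.7 CPM (1.17 ± 0.38, adjusted p = 0.0477), lost in 8 of the settings, each left-out EV or TF replicate among them. ZFP4 gave 1.38, 1.4 and 2.6 CPM against 0.151, 0.873 and 0.836 in batch 4 (1.49 ± 0.51, adjusted p = 0.0478), lost in 7. With DIV1 the gene was lower, at 3.61, 3.58 and 3.66 CPM against 6.14, 9.13 and 8.34 (-1.13, adjusted p = 0.0453), also lost in 7. The adjusted p of these 3 reached 0.161, 0.308 and 0.131.

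TCP23 was also the only TF called for NRT2.2 by edgeR, on very few counts: 6, 2 and 1 in its libraries and 0 in the 3 EV libraries of batch 5. Set against an assumed 3 counts over the EV group, the pooled level with TCP23 was 3.45-fold higher. This ratio leaves out the counting error of the 9 TCP23 counts, so it is not a lower bound. The adjusted p was 0.0478, and it was 0.0237 to 0.134 over the other settings that gave one, lost without any 1 replicate. DESeq2 called NRT2.2 with 3 TFs, TGA1 and bZIP3 (1.86, adjusted p = 0.0434) among them. NRT2.1 was at 4.23 CPM with TCP23 and 1.65 in EV (1.3 ± 0.53, adjusted p = 0.111).

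NRT2.4, a high-affinity transporter of N-starved roots, and NRT2.6, an NRT2 member of less certain role, had 0 calls by edgeR. At an unadjusted p under 0.05, NRT2.4 had 3 TFs and NRT2.6 had 4, and DESeq2 called 0 and 2. The DESeq2 calls of NRT2.6 were HSFB2A (log2 fold change -1.19, adjusted p = 0.0167) and ERF5 (2.18, adjusted p = 0.046). In the edgeR fit NRT2.6 was at 1.4 CPM with HSFB2A and 3.13 in EV (-1.12 ± 0.45, adjusted p = 0.0659).

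Of the TFs known for repression of nitrate genes, none had a repressed call of NRT2.1. For HHO2 the log2 fold change of NRT2.1 was 0.81 with a 95% interval up to 1.4, for HHO3 -0.09 with an interval up to 0.43, for LBD38 0.4 and for LBD37 1.85. HHO2 lowered NRT1.8 (54.1, 47.9 and 42.1 CPM against 108.8, 86.6 and 104.5, adjusted p = 7.02e-06) and NRT1.2 (73.8, 69.2 and 58.7 CPM against 82.4, 83.5 and 81, adjusted p = 0.0214), in libraries that did not overlap EV. HHO3 had 0 calls by edgeR, 2 members at an unadjusted p under 0.05 and 1 call by DESeq2. That was NRT2.5, at 1.05 CPM against 2.57 in EV (edgeR -1.31 ± 0.45, adjusted p = 0.105; DESeq2 adjusted p = 0.0351). LBD38 lowered NRT1.8 (58.8, 53.5 and 53.8 CPM, -0.85 ± 0.18, adjusted p = 0.000793), and LBD37 had the 3 calls given above. TGA4 had 1 call, NRT1.2 (57.7, 58.3 and 60.6 CPM against 75.9, 71.9 and 73.9, adjusted p = 0.0351). The GAATC motif of HHO proteins is in the windows of NRT2.1 and NRT2.2 but not of NRT1.8 or NRT1.2. This motif was found in 38.9% of the windows before protein-coding genes, and sequence outside the windows was not searched. Its part in these results was not tested.

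Pairs of closely related TFs were compared by the difference of their effects, each against the EV of its own batch. This was done for TGA1 and TGA4, HHO2 and HHO3, LBD38 and LBD37, and GATA17 and GATA17L, 40 differences over the 10 genes, chosen after the values had been seen. For TGA1 minus TGA4, NRT1.8 differed by -1.19 ± 0.26 (adjusted p = 0.00321, 2.02% of all genes called): TGA1 gave 26.7, 25.7 and 30.6 CPM against 70.8, 69.6 and 62.1 in EV, while TGA4 had a mean of 46.7 CPM against 49.9. NRT2.1 differed by -1.08 ± 0.37 and NRT1.1 by -0.63 ± 0.27, short of the threshold (adjusted p = 0.12 and 0.261). For GATA17 minus GATA17L, NRT1.8 differed by -0.9 ± 0.25 (adjusted p = 0.0216, 4.26% of genes called). For LBD38 minus LBD37, NRT3.1 differed by 0.71 ± 0.17 (adjusted p = 0.00196, 7.6% of genes called), with 35 CPM with LBD38 against 29.2 in EV and 120.3 with LBD37 against 163.8. HHO2 minus HHO3 gave no call (0.35% of genes called): its difference for NRT1.8 was -0.94 ± 0.25 (adjusted p = 0.0699), with an interval of -1.45 to -0.44, and DESeq2 gave an adjusted p of 0.0267. The members of each pair were assayed in different batches, so a difference between batches in how EV cells respond cannot be told apart from one between the TFs. The NRT1.8 difference of TGA1 was lost without TF replicate 1 or 2 (adjusted p up to 0.0727), and that of GATA17 without any 1 EV replicate or without TF replicate 2 (up to 0.409), whereas that of NRT3.1 was kept (up to 0.0385).

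By TF, DIV1 had 5 members called, 4 of them higher, where 25.3% of all tested genes were called. Replicate 3 of DIV1 stood apart from the other two, with a chi-square per degree of freedom of 80.1 and 82 against at most 37.8 for any other replicate pair. Without TF replicate 3 the DIV1 calls of NRT1.2 and NRT3.1 were kept (log2 fold change 1.12 and 0.83), and those of NRT1.5, NRT2.1 and NRT2.5 were lost (adjusted p = 0.636, 0.112 and 0.101). HSFB2A (21.9% of genes called), TGA1 and C2H2 (15.3%) had 4 each. bZIP3 (13%), ZFP4 (9.13%) and LBD37 (10.7%) had 3 each, and CDF1 (7.04%), HHO2 (8.59%), TCP23 (10.4%) and RAV1 (24.4%) had 2 each. ERF056 (18.7%), GATA17 (16.1%), TGA4 (1.39%), ASR3 (3.74%), ERF060 (4.72%), LBD38 (4.62%), NAC4 (5.13%), FBH4 (6.29%), MYB61 (11.7%), NAP (8.4%), WRKY18 (5.92%), ERF5 (7.34%) and WRKY54 (10.7%) had 1 each. With DIV1 the stele sum was 272.1 to 326.9 CPM against 111.6 to 131 in EV, with SUC2 higher and AHK4 and SKOR lower, and its part in the higher NRT1.2, NRT1.5 and NRT3.1 was not tested. With RAV1 the stele sum was 60.3 to 66.8 CPM, and 5 of the 6 markers were lower.

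No member was called by edgeR with BEE2 (0.891% of genes called), COL5 (3.97%), CRF4 (0.708%), GATA17L (4.58%), HB6 (6.54%), HHO3 (2.91%), HYH (6.83%), HAT22 (17%) or VRN1 (2.55%). At an unadjusted p under 0.05 the number of members was 3 for COL5 and VRN1, 2 for HB6, HHO3 and HAT22, 1 for BEE2, CRF4 and HYH, and 0 for GATA17L. DESeq2 called 2 members with COL5, 1 each with HHO3, HAT22 and VRN1, and 0 with the others. Of the 8 TFs of batch 3 only TGA4 had a call by edgeR.

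The genes most like each member, by the correlation of log2 CPM centred within batches over all libraries, were mostly outside the transport families. NRT1.8 was most like ZAT6 (AT5G04340, r = 0.666), MYB2 (AT2G47190, 0.612) and AT2G35730 (0.605), where ZAT6 is a zinc finger protein and MYB2 a MYB protein. NRT1.1 was most like RALFL22 (0.78), HPT1 (0.776) and FRO3 (0.756), a ferric reductase. For NRT1.2 the nearest were AT1G61740 (0.707), AT4G26540 (0.687) and AT5G59080 (0.665), for NRT3.1 AT4G22020 (0.635), AAT1 (0.597), an amino acid transporter, and OPT4 (0.589), an oligopeptide transporter, and for NRT2.1 ATPUP20 (0.553), AT1G07985 (0.53) and OZF2 (0.513). The highest values of NRT1.5, NRT2.2, NRT2.5 and NRT2.6 were 0.532, 0.443, 0.439 and 0.546. The libraries of a group share their TF and a batch, and nothing of shared function or control follows from the values.

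Other genes of nitrate transport were called at a share between those of the members (14.2%) and of all gene and TF pairs (9.58%). From a list of 16, 15 were found and 14 passed the filter, and 55 of their 462 pairs with a TF were called (11.9%), 24 higher and 31 lower, for 11 genes. NRT1.9 (AT1G18880), which loads nitrate into the phloem of the root, had 19 calls, 6 higher and 13 lower, from -2.11 with RAV1 to 2.19 with NAP. NAXT1 (AT3G45650), a nitrate efflux transporter, had 9 calls, NRT1.7 (AT1G69870), a phloem loader of leaves, 8, and SLAH3 (AT5G24030), an anion channel, 6. Of the genes that sense nitrate or pass its signal on, 7 had 53 calls of 231 pairs (22.9%), 14 higher and 39 lower. The kinase CIPK8 (16 calls) and the TF NLP6 (12 calls) led them. NIA1, NIA2 and NIR1, which reduce nitrate to ammonium, had 38 calls of 99 (38.4%), 8 higher and 30 lower, and NIA2 alone had 21. AHA1 and AHA2, the proton pumps that energize uptake, had 26 of 66 (39.4%), 5 higher and 21 lower.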

How the data were processed

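The deposited files hold raw read counts per gene, which the authors made by trimming reads, aligning them to TAIR10 with TopHat2 and counting them over gene models. Whether strand was used and how reads shared by similar genes were counted are not given in the sources used here. From these counts, a gene was kept where 3 or more libraries held 10 or more counts of it. Library sizes were scaled by TMM, and edgeR 4.0.16 (R 4.3.3, limma 3.58.1) was fitted with the quasi-likelihood test over all libraries, with 39 group coefficients and 76 residual degrees of freedom. Each TF was compared with the EV libraries of its own batch, p-values were adjusted by Benjamini-Hochberg over all tested genes for each TF, and a call is an adjusted p under 0.05. Values are CPM and log2 fold changes with SE. The median depth was 12336285 counts, and no 2 libraries of a group were identical. The fit was tested on simulated data.

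The members and lists were chosen with earlier results of these data known. Full values were to be given for at most the 3 TFs with the largest change of each member among called groups that do not overlap EV, and for HHO2, HHO3, LBD37, LBD38, TGA1 and TGA4. Values of other TFs (such as NAP, FBH4, C2H2 with NRT2.1, and ERF056 and GATA17 with NRT1.8) were added after they were seen. Alternatives were DESeq2 1.42.0, its size factors in edgeR, TMM without the 10 most abundant genes, no filter, the replicate number as a block, each batch alone, batches 1 to 4 and 5 to 6 apart, and each replicate number left out of EV or of the TFs. The count without batches 5 and 6 and the differences between related TFs were chosen after seeing the data. Same-numbered TF and EV libraries had every correlation of deviations over 0.1 for only 2 of the 33 TFs, so no block was used. Sequences and gene models are those of RefSeq for TAIR10.1, read with Biopython 1.88.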

Additional observations from a re-analysis of the deposited data

Results flagged for a closer look

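Effects of closely related TFs, each against the EV of its own batch, differed by the test of the difference itself in 3 of 40 cases. NRT1.8 was lowered more with TGA1 than with TGA4, by -1.19 on the log2 scale (95% interval -1.71 to -0.67, adjusted p = 0.00321), with all 3 TGA1 libraries below their EV libraries and the TGA4 libraries overlapping theirs. NRT3.1 differed by 0.71 between LBD38 and LBD37 (0.38 to 1.05, adjusted p = 0.00196), with all 3 LBD38 libraries above and all 3 LBD37 libraries below their EV libraries. By itself the LBD38 effect was not called (log2 fold change 0.27), whereas that of LBD37 was (-0.45). NRT1.8 differed by -0.9 between GATA17 and GATA17L (-1.4 to -0.4, adjusted p = 0.0216), with all 3 GATA17 libraries below EV and the GATA17L libraries overlapping it. The TFs of each pair were assayed in different batches, so TF and batch cannot be told apart in these differences. The pairs were chosen after the values had been seen, and both NRT1.8 differences were lost when some single replicates were left out.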

How the results depend on the processing

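The 47 calls over the 33 TFs (9.58% of all gene and TF pairs called) were 64 by DESeq2 (11.5%), 46 with its size factors (9.68%), 45 without the top genes (9.54%), 33 with no filter (6.03%), 54 with each batch alone (11.7%) and 52 with batches 1 to 4 and 5 to 6 apart (11.2%). Counting only TFs of batches 1 to 4, a choice made after seeing the data, left 29 calls, 5 of them induced, and 30 of the 55 calls of the other nitrate transport genes. The 18 induced calls were 30 by DESeq2 and 11 with no filter. Leaving out 1 replicate number, with 5.85% to 8.37% of all pairs called, gave 34 to 41 calls, 8 to 14 induced calls, 20 to 29 repressed calls and 38 to 53 calls of the other transport genes. Of the 47 called pairs, 21 were lost in at least 1 setting, 15 in 3 or more, and 0 reversed. The differences between related TFs on NRT1.8 that missed the threshold passed it by DESeq2, with adjusted p = 0.0267 for HHO2 and HHO3 and 0.0429 for LBD38 and LBD37. NRT2.2 and NRT2.4, at 0 counts in 22 and 48 libraries, are limited by depth.

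With the replicate number as a block there were 55 calls (11.5% of all pairs called), 23 induced and 32 repressed, and 79 calls of the other transport genes. The numbers are not shown to pair the samples throughout: over 97 same-numbered pairs the median correlation of deviations was 0.031 (-0.127 to 0.353), and every correlation was over 0.1 for 2 of the 33 TFs. It was uneven, however: in batch 4 replicate 1 gave 0.244 (bZIP3) to 0.344 (C2H2) and replicate 3 gave 0.073 (ZFP4) to 0.289 (CDF1). Replicate 2 of that batch gave -0.113 (HHO2) to 0.106 (NAC4).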
